A study of Mus musculus with 33 samples.

Results

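The Trav17 bait and the Eα bait sit at the opposite ends of the interval that runs from the most proximal part of the V array to the α enhancer of the mouse Tcra–Tcrd locus, and their contacts in double-positive (DP) thymocytes were set side by side. The libraries were chosen by condition, not by any measured value: the 3 DP libraries of each bait with an intact EACBE, 6 of the 33 libraries of the series, with the library of the second Eα bait left out. The study mapped chromosome contacts of this locus by 3C-HTGTS, in which a biotinylated primer extends from 1 chosen fragment (the bait) into whatever was ligated to it after crosslinking and MboI digestion. Reads that hold at least 2 further fragments report three-way contacts, and the deposited reads list the first 2 fragments beyond the bait, here called a pair, each fragment of which is an end. Both groups came from C57BL/6 mice of genotype CBE+/+ Rag1-/-, so no antigen receptor gene was rearranged in either, and DP cells were obtained by injecting 150 μg of anti-CD3 antibody at 3 weeks of age and taking the thymi 10 days later. Cells were fixed with 1% formaldehyde and digested with 200 units of MboI. These thymocytes were driven to the DP stage by antibody and not by pre-TCR signalling, which limits them as a model, and since contacts alone were measured the labelled cell type was not checked against marker genes.

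In the 560 kb mapped by the study (chr14:53740001-54300000, mm10), the Trav17 libraries 1, 2 and 3 held 15802, 16686 and 71922 pairs with both fragments inside, and the Eα libraries 41921, 17006 and 18606. Pairs with a fragment in either 10 kb bait window (chr14:53800001-53810000 and chr14:54220001-54230000) were left out of the profiles, which kept 11952, 12529 and 56392 pairs with the Trav17 bait and 35670, 14335 and 16052 with the Eα bait. A distinct fragment pair was read 3.75, 3.64 and 13.8 times in the Trav17 libraries and 6.32, 3.75 and 3.77 times in the Eα libraries, and since no molecular identifiers were used, every result was also computed with each distinct pair counted once. Libraries of the same bait shared 7.27% to 14.1% of their distinct pairs and libraries of different baits 5.05% to 9.95%. The read names had 1 form in all Trav17 libraries and another in all Eα libraries. The labels do not say what this form stands for, and it cannot be told apart from the bait. Nothing in the labels ties a library to an animal, and p-values therefore measure the spread between libraries, which may be technical. All levels below are percentages of a library's kept pairs or ends, so that a higher share in 1 place goes with lower shares elsewhere.

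The Tcra–Tcrd locus carries the genes of 2 antigen receptor chains on the same chromosome. Its V genes lie upstream, followed by the D, J and C segments of Tcrd, then by the array of Jα segments, Cα and the enhancer Eα, which activates the Jα array in DP thymocytes. INT1 and INT2 are CTCF-binding elements (CBEs) between the V genes and the Tcrd segments, TEAp is the promoter at the upstream end of the Jα array and itself carries a CBE, and EACBE is the CBE just beyond Eα. Cohesin extrudes chromatin loops that are held at CBEs according to the direction of the motif, and the first Tcra rearrangements join V genes near the downstream end of the V array to the Jα segments nearest TEAp.

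The bait ends are shown because they fix where each profile starts. Each is written 5′ to 3′ from the first base of the primer to the MboI site (GRCm38.p6, minus strand), where ligation to the captured fragment takes place, with that site in capitals; the first lies at chr14:53804241-53804316 and the second at chr14:54225987-54226100.
Trav17 bait end: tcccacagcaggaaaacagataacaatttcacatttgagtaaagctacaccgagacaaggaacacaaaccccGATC
Eα bait end: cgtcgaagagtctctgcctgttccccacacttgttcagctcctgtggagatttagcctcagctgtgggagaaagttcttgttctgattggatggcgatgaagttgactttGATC

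The baits also differ in the CBE beside them. The Trav17 bait fragment (chr14:53804241-53805068) has a match to the CTCF core motif on the minus strand, pointing away from Eα, and a match within the same 10 kb window, next to the Trav17 gene, points toward it. The Eα bait fragment (chr14:54225987-54227254) has none, and the match in its window lies outside it, on the plus strand. According to the study this bait is not in the restriction fragment that contains Eα. The second Eα bait, left out here, was designed in that fragment (chr14:54227255-54227584). The core was searched on both strands, with at most 1 mismatch in its 14 letters, and 17 of the 112 bins of 5 kb (15.2%) held a match. The stretches below, in the motif's own 5′ to 3′ direction with the core in capitals, are those of the baits and of the elements between them (GRCm38.p6, in order chr14:53804412-53804451 minus, chr14:53806389-53806428 plus, chr14:54059951-54059990 plus, chr14:54153019-54153058 minus and chr14:54228289-54228328 plus).
Trav17 bait fragment: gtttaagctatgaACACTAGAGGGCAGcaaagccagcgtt
Beside Trav17: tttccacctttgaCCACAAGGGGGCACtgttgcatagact
INT1: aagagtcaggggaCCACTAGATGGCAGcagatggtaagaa
TEAp bait fragment: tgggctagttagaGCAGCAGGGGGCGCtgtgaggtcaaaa
Eα window: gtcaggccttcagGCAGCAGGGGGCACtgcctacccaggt
Such a match is a description of the sequence, not of binding. INT1 was placed at its match and INT2 at the fragment of the study's INT2 primer (chr14:54065620-54066119), so the 5 kb bins named for them are inferred. The INT1 match (chr14:54059964-54059977) lies at the downstream edge of its bin. A fragment is counted in the bin of its end, so the fragment with this match may be counted in the next bin, chr14:54060001-54065000.

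The 2 ends of the interval saw the locus in different proportions. From the Trav17 bait most ends lay upstream of the INTs, in the proximal V region and in the V genes beyond Trav17, and from the Eα bait the largest segment was the distal Jα array. The region was cut into 7 segments for this: the 60 kb upstream of the Trav17 window, which still holds V genes, the proximal V region (245 kb), the INTs (15 kb), the δ interval with the Tcrd segments (80 kb), the proximal Jα bins with TEAp and Traj61 to Traj53 (15 kb), the distal Jα array (55 kb) and the 70 kb downstream of the Eα window. In all 7 segments the shares of the 3 Trav17 libraries did not overlap those of the 3 Eα libraries (p = 0.1 and adjusted p = 0.1 for each in an exact two-sided permutation test over libraries, which cannot give less with 3 against 3), beside 59.0% of the 5 kb bins.

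In the distal Jα array, Trav17 libraries 1, 2 and 3 had 10.0%, 9.71% and 8.75% of their ends, and Eα libraries 1, 2 and 3 had 32.8%, 33.4% and 32.6%. In the proximal V region the values were 42.3%, 40.3% and 44.0% with the Trav17 bait and 28.6%, 24.9% and 26.9% with the Eα bait. Each bait was high in the segment on its own side, and the libraries of a bait lay close together compared with the gap. The proximal Jα bins, which hold the Jα segments of primary rearrangement, took 2.20 ± 0.295% with the Trav17 bait (SD, n = 3 libraries, here and below) and 5.69 ± 0.543% with the Eα bait, a ratio of 0.387. The INTs took 5.94 ± 0.796% and 9.65 ± 0.433%, and the δ interval 12.5 ± 0.943% and 14.8 ± 0.83%. These 3 inner segments were thus all lower from the Trav17 end, the δ interval by the least. Upstream of the Trav17 window lay 22.8 ± 0.215% and 2.96 ± 0.143% of the ends, a ratio of 7.71, whereas downstream of the Eα window lay 4.79 ± 0.384% and 7.14 ± 0.278%. Counting each distinct pair once kept all 7 segments apart in the same directions, with 9.04 ± 0.762% and 29.2 ± 1.21% in the distal Jα array.

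**Figure D1:**
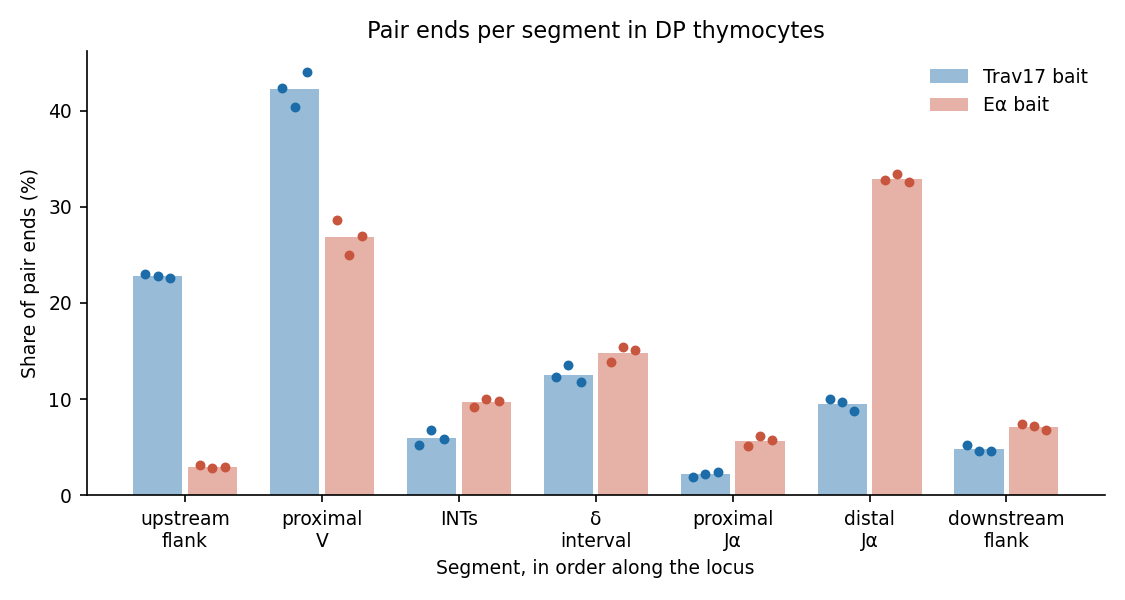
Share of ends (%) in each of the 7 segments of the region for the Trav17 bait and the Eα bait; bars are means, points the 3 libraries of each bait. The distal Jα array took 9.49% of the ends with the Trav17 bait and 32.9% with the Eα bait, the largest gap of the 7, and in no segment do the points of the baits overlap.

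Along the locus, counts per 5 kb bin were compared by the quasi-likelihood test of edgeR, with p-values adjusted by Benjamini-Hochberg over all bins with at least 10 counts. Of 105 bins, 54 (51.4%) passed an adjusted p of 0.05, 34 (32.4%) higher with the Trav17 bait and 20 (19.0%) higher with the Eα bait, and 53 of the 54 also had shares that did not overlap between the baits. The calls fell into blocks. All 12 bins upstream of the Trav17 window and 22 of 48 in the proximal V region were higher with the Trav17 bait. All 11 of the distal Jα array, all 3 of the INTs, 2 of 3 of proximal Jα, 2 of 15 of the δ interval and 2 of 13 downstream of the Eα window were higher with the Eα bait. Over all bins the median log2 fold change (Trav17 over Eα) was 0.04, in the 12 upstream bins 2.43 and in the 11 distal Jα bins -1.64. Counting each distinct pair once gave 56 calls of 103 bins tested, of which 50 were calls in the same direction with all reads.

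The bins with the largest differences lay beside the baits. The bin of Trav13-5, the V gene just upstream of the Trav17 window (chr14:53795001-53800000), had 5.53%, 5.42% and 4.80% of the ends in the Trav17 libraries and 0.484%, 0.499% and 0.470% in the Eα libraries. That is a ratio of 10.8 (log2 fold change 3.44 ± 0.18 SE, edgeR adjusted p = 1.2e-58). The next bin upstream, chr14:53790001-53795000, took the largest share of any bin in the Trav17 libraries, 6.70%, against 0.702% (log2 fold change 3.25). The bin of Trav3-4 and Trav12-4, at chr14:53775001-53780000, followed with 3.22% against 0.353% (3.21), then chr14:53785001-53790000 (2.83) and, on the other side of the window, chr14:53810001-53815000 (2.69). At the other end, the bin of Traj4 to Traj1, the last Jα segments before Cα (chr14:54215001-54220000), had 1.22%, 0.838% and 0.741% in the Trav17 libraries and 4.81%, 4.81% and 4.88% in the Eα libraries. It was 5.18 times higher with the Eα bait (log2 fold change -2.39 ± 0.17 SE, edgeR adjusted p = 2.6e-36). The bins of Traj14 to Traj8 (-2.22), Traj7 to Traj5 (-1.91), Traj19 to Traj15 (-1.89) and Traj29 to Traj25 (-1.78) came next. All 10 of these bins kept their direction and their call under every alternative in which they were tested.

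Between the blocks lay a stretch in which the baits did not differ detectably. The last bin higher with the Trav17 bait was that of Trdv2-1, 135 kb from the Trav17 window (chr14:53945001-53950000), and the first higher with the Eα bait was that of INT1, 245 kb from the Trav17 window and 160 kb from the Eα window (chr14:54055001-54060000). None of the 21 bins tested in the 105 kb between them was called by edgeR, where 1 had an unadjusted p under 0.05. DESeq2 called 0 of them too, and edgeR with the replicate number as a block called 1. Their log2 fold changes ran from -0.61 to 0.81, with standard errors of 0.18 to 0.49 and a median of 0.24.

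**Figure D2:**
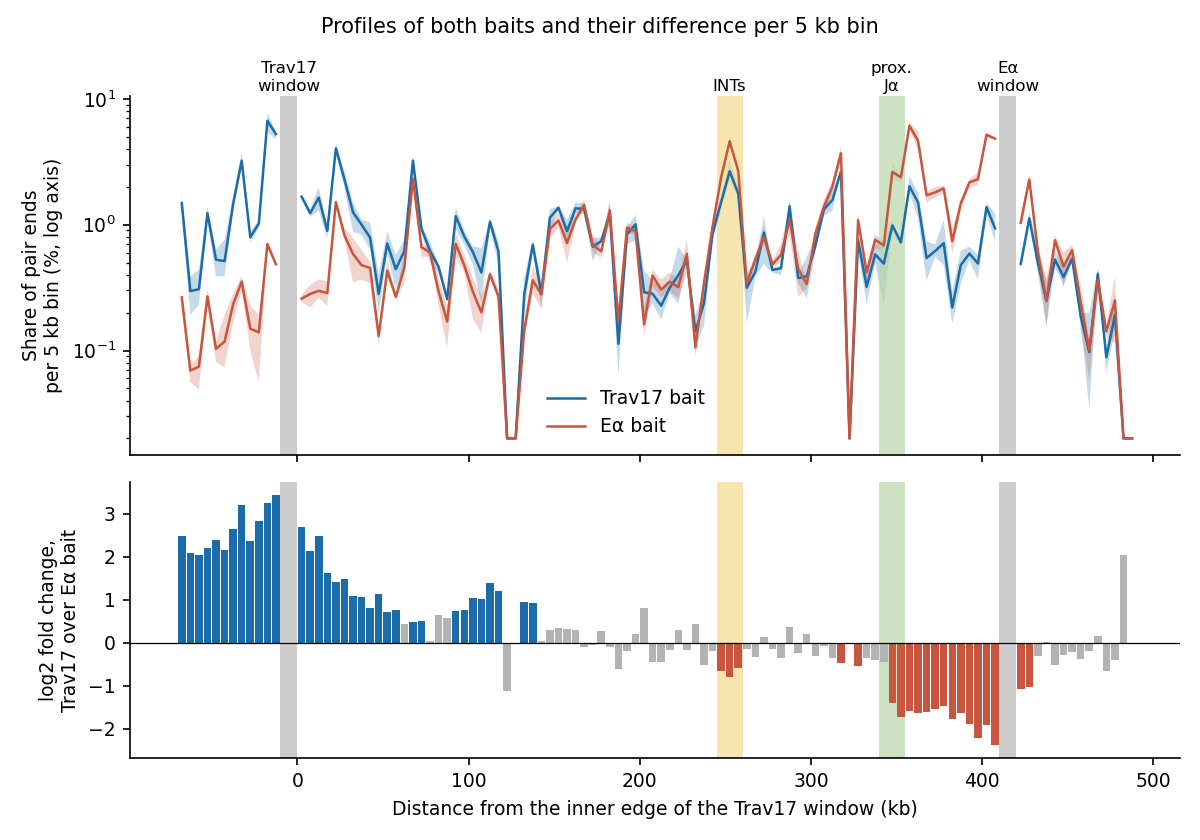
Upper panel, mean share of ends (%, log axis) per 5 kb bin against distance (kb) from the inner edge of the Trav17 window, with bands for the range of the 3 libraries of each bait and shares at or below 0.02% drawn at 0.02. Lower panel, log2 fold change (Trav17 over Eα) of each bin, coloured where the edgeR adjusted p is under 0.05. Grey marks the bait windows, yellow the INTs and green proximal Jα; the coloured bins are above 0 up to 135 kb and below 0 from 245 kb onward.

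The 12 annotated V genes between the windows, the variable segments nearest the recombining J segments, were taken as 1 list. Of their bins, 7 were higher with the Trav17 bait, none was higher with the Eα bait by edgeR (0 at an unadjusted p under 0.05 and 0 by DESeq2), and 5 did not pass, beside 32.4% and 19.0% of all bins. Trav18 had 3.85%, 3.74% and 4.51% of the ends in the Trav17 libraries and 1.55%, 1.42% and 1.56% in the Eα libraries. It had the highest share of the 12 from the Trav17 bait (log2 fold change 1.42 ± 0.16 SE, edgeR adjusted p = 2.7e-16). Trav21-dv12, a V gene used by both Tcra and Tcrd, had 2.95%, 3.55% and 3.20% against 2.16%, 2.62% and 2.15% and was the highest from the Eα bait. The groups did not overlap, and the log2 fold change of this bin, 65 kb from the Trav17 window, was a smaller one (0.49 ± 0.16 SE, adjusted p = 0.0053 by edgeR, 0.054 with TMM scaling and 0.070 without Eα library 3).

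The other V genes followed their distance from Trav17 only in part. Trav19 (1.00% against 0.477%, log2 fold change 1.06), Trav22 (0.610% against 0.269%, 1.19) and Trdv2-1 (0.693% against 0.362%, 0.92) were higher with the Trav17 bait. So was Trav20 (0.709% against 0.432%, 0.72, edgeR adjusted p = 0.014), although its p was 0.172 without Trav17 library 3, 0.061 without Eα library 2 and 0.082 without Eα library 3. Trdv1 passed narrowly (0.928% against 0.661%, 0.50, edgeR adjusted p = 0.047), and with each distinct pair counted once its p was 0.334; leaving out Trav17 library 2 or 3 gave 0.101 and 0.150, and leaving out Eα library 1, 2 or 3 gave 0.200, 0.0501 and 0.0782. From Trdv2-2 on, 150 kb and more from the Trav17 window, no V gene passed, and the last 2 of these, Trdv4 and Trdv5, lie beyond the INTs. Trdv2-2 had 1.37% against 1.08% (0.34), Trav23 1.33% against 1.43% (-0.11), Trdv3 0.835% against 0.948% (-0.19), Trdv4 0.424% against 0.532% (-0.34) and Trdv5 0.581% against 0.760% (-0.40, edgeR adjusted p = 0.168, or 0.034 with distinct pairs). Among the 6 V genes with the highest share from each bait, 4 were the same: Trav18, Trav21-dv12, Trdv2-2 and Trav23.

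The elements between the baits took lower shares from the Trav17 end, INT1 and INT2 past the test and TEAp and Trdd2 not. INT1 had 1.32%, 1.52% and 1.69% of the ends with the Trav17 bait and 2.15%, 2.45% and 2.55% with the Eα bait (log2 fold change -0.65 ± 0.17 SE, edgeR adjusted p = 0.00028). INT2 had 1.65%, 1.99% and 1.68% against 2.88%, 2.56% and 2.58% (-0.59 ± 0.16 SE, edgeR adjusted p = 0.00078). Neither INT bin overlapped between the baits. The bin between them, in which the fragment with the INT1 match may be counted, was higher than either in every library, with 2.66% and 4.60% on average (-0.79). Within the δ interval, Trdd2, the D segment nearest the δ J segments, had 1.57 ± 0.278% and 2.01 ± 0.211%, which overlapped (-0.36, edgeR adjusted p = 0.066, or 0.0018 with distinct pairs). The 2 bins called there, named after their values were seen, were the next bin downstream (chr14:54125001-54130000, 2.65% against 3.70%, -0.48) and that of Trdj2 (0.748% against 1.09%, -0.53).

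At the Jα array the difference set in sharply. The bin of TEAp had 0.226%, 0.531% and 0.713% with the Trav17 bait and 0.632%, 0.677% and 0.744% with the Eα bait, which overlapped (log2 fold change -0.45 ± 0.26 SE, edgeR adjusted p = 0.14, or 0.016 with distinct pairs). The very next bin, of Traj61 to Traj56, had 0.899%, 0.982% and 1.08% against 2.33%, 3.02% and 2.53% (-1.40 ± 0.17 SE, edgeR adjusted p = 1.9e-14), and that of Traj55 to Traj53 had 0.724% against 2.38% (-1.72). The 11 distal Jα bins ran from -2.39 to -1.47. Within the Jα array itself the proximal bins were better represented from the Trav17 end: of all Jα ends, 15.8%, 18.8% and 22% fell in proximal Jα with the Trav17 bait and 13.5%, 15.6% and 15.1% with the Eα bait, and 33.1 ± 2.8% against 41.4 ± 2.33% in the 5 bins nearest the Eα window. Neither share overlapped between the baits (exact two-sided permutation test, p = 0.1 each). Downstream of the Eα window, the 2 called bins, again named after their values were seen, were chr14:54230001-54235000 (-1.08) and the first bin of Dad1, the gene that follows the locus (chr14:54235001-54240000, -1.03).

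Since the baits face each other, their contacts were also compared at equal distance from the own window, inward across the 410 kb between the windows. The median inward end lay 182.5, 192.5 and 172.5 kb from the window with the Trav17 bait and 97.5, 92.5 and 97.5 kb with the Eα bait. The Eα bait thus held its inward contacts closer (exact two-sided permutation test, p = 0.1), and with distinct pairs the means were 180.8 and 110.8 kb. In steps of 50 kb, the nearest took 20.9 ± 1.83% of the inward ends with the Trav17 bait and 29.8 ± 0.41% with the Eα bait, and the next 12.8 ± 0.905% and 22 ± 1.77%. The third step (7.04% and 7.60%) overlapped, and the fourth (13.2% and 14%) and the fifth (6.59% and 8.57%) differed by less than 2 percentage points. The last 3 steps were reached more from the Trav17 bait: 12.6 ± 1.49% against 4.66 ± 0.376%, 12.9 ± 0.793% against 6.86 ± 0.247%, and 14.1 ± 1.06% against 6.46 ± 0.758% in the final 60 kb. Of 8 steps, 7 did not overlap (exact two-sided permutation test, p = 0.1, adjusted p = 0.114).

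The inward profile fell off from neither end in a smooth way. With the Trav17 bait the sixth step, which holds INT2, took more than either the third or the fifth, and with the Eα bait the fourth step, which holds the INTs from that side, took more than the third. Beyond the windows the asymmetry was larger. The 60 kb on the outer side of the own window took 23.1%, 22.8% and 22.6% of all ends with the Trav17 bait but 7.37%, 7.21% and 6.82% with the Eα bait, and the inner 60 kb took 16.3 ± 1.58% and 35.3 ± 0.515%. The outer to inner ratio was 1.41, 1.55 and 1.27 with the Trav17 bait and 0.211, 0.201 and 0.194 with the Eα bait. All Trav17 libraries were thus above 1 and all Eα libraries far below it (exact two-sided permutation test, p = 0.1), and with distinct pairs the means were 1.43 and 0.240. What part the direction of the CBEs or the genes on either side have in this was not tested.

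**Figure D3:**
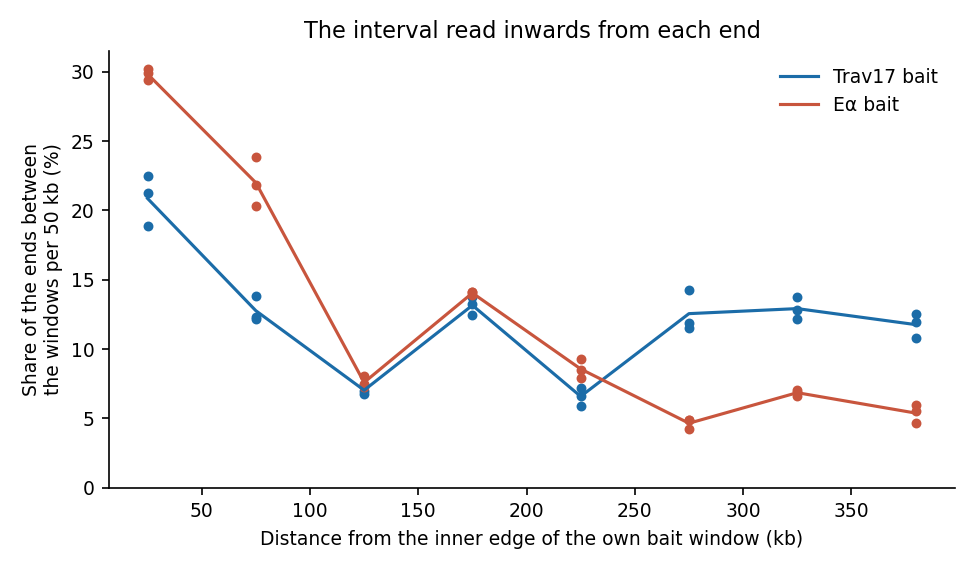
Share of the ends between the windows (%, per 50 kb) by distance (kb) from the own bait window, in 8 steps, with the last of 60 kb scaled to 50. Lines join the means and points are the 3 libraries of each bait. The Eα bait is higher in the first 2 steps (29.8% and 22%) and the Trav17 bait in the last 3.

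The slope away from each bait was then reduced to see which sites stood out locally. Local prominence is the share of a bin divided by the mean of the bins 15 to 40 kb away on both sides, so that 1 means no more than the surroundings. The same sites led from both ends. The bin between those named for INT1 and INT2 (chr14:54060001-54065000) was the most prominent of 82 from either bait. It had 4.61, 6.5 and 5.37 in the Trav17 libraries and 8.38, 10.5 and 9.04 in the Eα libraries. The bin of Trav21-dv12 was the next from either bait, with 3.48, 4.64 and 3.55 against 4.52, 7.15 and 5.17, which overlapped (exact two-sided permutation test, p = 0.2). Of the 10 most prominent bins 7 were common to the baits, 70% of each list. Beside a window the control bins reach across it, so part of the slope may remain there. The bins chr14:54210001-54215000 and chr14:54215001-54220000, beside the Eα window, had 3.31 and 3.81 from Eα and 2.19 and 1.73 from Trav17. They were on the Eα list only.

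The size of the local excess differed for some sites and not for others. INT1 had 3.16 ± 0.586 from Trav17 and 4.86 ± 0.395 from Eα, and INT2 3.34 ± 0.392 and 5.01 ± 0.376, so both INTs stood out more from the Eα end. Proximal Jα lay below 1 from Trav17, at 0.872 ± 0.148, and above it from Eα, at 1.2 ± 0.09. TEAp (0.474 and 0.317) and Trdd2 (2.43 and 2.06) overlapped. Among 17 named sites 8 did not overlap (exact two-sided permutation test, p = 0.1, adjusted p = 0.212), beside 26 of all 82 bins (31.7%). Of the 12 V gene bins, 6 were above 1 from both baits, with medians of 1.03 and 1.10 over the list against 0.754 and 0.681 over all bins. Trav18 had 2.17 ± 0.311 from Trav17 and 3.86 ± 0.365 from Eα, but its surroundings include bins close to the Trav17 window, and with the windows widened by 10 kb the difference turned from -1.69 to 2.32 in favour of Trav17. The 7 bins with a CTCF core match had medians of 0.854 and 0.591, and 2 and 3 of them were above 1. The search found no match in the bin of INT2, itself a CBE, so these bins do not stand for the CBEs of the interval.

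**Figure D4:**
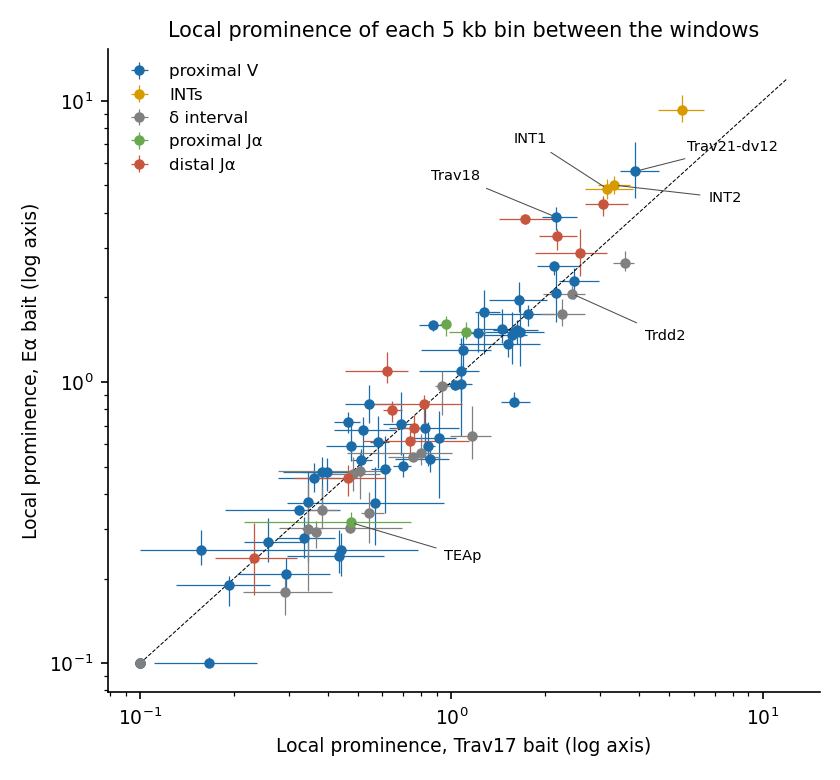
Local prominence (share of a 5 kb bin over that of bins 15 to 40 kb away) of the 82 bins between the windows, Eα bait against Trav17 bait on log axes; bars span the 3 libraries, values under 0.1 are drawn at 0.1 and the dashed line marks equality. The yellow points are the 3 bins of the INTs, the highest of them at 5.49 and 9.31, and most other points lie near the line.

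A pair places 2 sites beside the bait, and the 2 ends of the interval differed most in which side of the INTs the whole pair lay. With the Trav17 bait 54.2%, 52.6% and 55.1% of the pairs had both fragments upstream of the INTs, against 20.6%, 17.6% and 18.1% with the Eα bait. Both fragments lay downstream in 18.2%, 19.4% and 16.0% against 46.0%, 50.5% and 46.7%. With either bait, the largest of the 4 classes was thus that on its own side of the INTs. Pairs that crossed from 1 side of the INTs to the other made up nearly equal shares: 18.5%, 17.1% and 19.0% with the Trav17 bait and 18.3%, 15.4% and 18.8% with the Eα bait (exact two-sided permutation test, p = 0.6, adjusted p = 0.619). Their difference of 0.69 percentage points turned to -0.37 with distinct pairs or without Eα library 2, so no direction holds. Pairs touching the INTs made up 9.97 ± 0.943% and 16.0 ± 0.797%, which did not overlap.

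**Figure D5:**
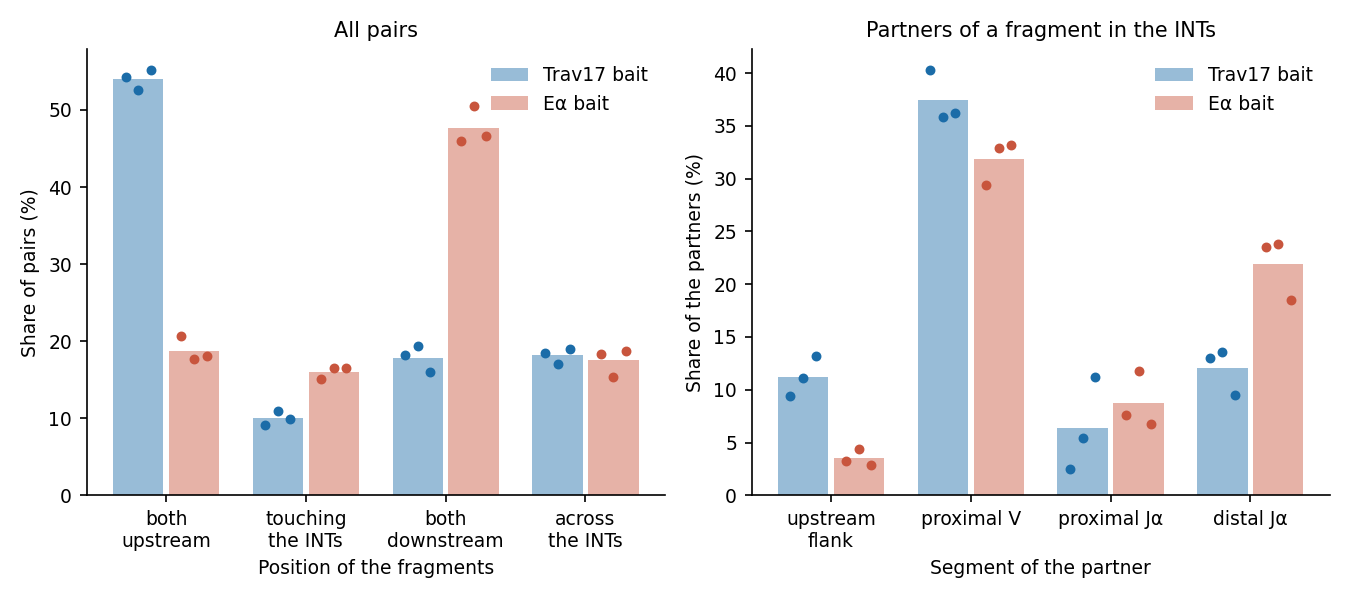
Left, share of pairs (%) with both fragments upstream of the INTs, both downstream, across them, or touching them; right, share (%) of the partners of a fragment in the INTs that lay in each segment. Bars are means and points the 3 libraries of each bait; pairs across the INTs are 18.2% and 17.5% of all, while the classes on 1 side are 54.0% against 18.8% and 17.9% against 47.7%.

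Combinations of segments were then compared. Counted together with the classes about the INTs given above, which are sums of them, 26 of 32 pair classes did not overlap between the baits (exact two-sided permutation test, p = 0.1, adjusted p = 0.123). The classes that join the proximal V region to Jα segments, the partners of Tcra rearrangement, had lower shares from the Trav17 end. By contrast, the V genes upstream of Trav17 with the distal Jα array had higher ones (2.26 ± 0.652% against 0.920 ± 0.0463%). These are shares of all pairs, not yet set against how often each segment was met. The proximal V region with proximal Jα made up 0.761%, 0.774% and 0.906% with the Trav17 bait and 1.53%, 1.41% and 2.01% with the Eα bait. The proximal V region with the distal Jα array made up 3.76 ± 0.85% against 7.87 ± 0.819%. The INTs with proximal Jα overlapped, at 0.192%, 0.455% and 0.917% against 0.900%, 1.52% and 0.897% (p = 0.3, exact two-sided permutation test), with the Trav17 libraries far apart from each other. By contrast, the proximal V region with the δ interval (3.88% and 4.12%) and with the downstream segment (2.11% and 2.04%) made up like shares, and the proximal V region with itself 29.0 ± 1.23% and 16.2 ± 1.39%.

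A class can be frequent only because its segments are, so each share was also divided by the share that the segments' own frequencies would give. By this ratio the classes of V and Jα segments overlapped between the baits. From Trav17 and Eα the proximal V region had 0.440 and 0.542 with proximal Jα, and 0.469 and 0.446 with the distal Jα array. The upstream segment with the distal Jα array had 0.532 and 0.472 (exact two-sided permutation test, p = 0.2, 0.8 and 0.7 in this order). Within a segment this ratio cannot exceed 1 over the segment's share, which caps it lower for the bait that meets the segment more often, and so no order of the baits was read from it. From both baits, contacts within each of the 7 segments exceeded 1. The distal Jα array with itself reached 5.29, 5.51 and 5.32 from Trav17, where the cap is 10.5, and 2.03, 2.04 and 2.01 from Eα, where it is 3.04. The upstream segment with itself reached 2.28, 2.47 and 2.23 from Trav17 (cap 4.38) and 10.3, 13.2 and 12.5 from Eα (cap 33.8). The proximal V region with itself had 1.63 ± 0.106 and 2.25 ± 0.176, the δ interval 4.44 ± 0.178 and 3.56 ± 0.242, the INTs 5.28 ± 0.37 and 3.55 ± 0.306, proximal Jα 11.8 ± 3.91 and 3.89 ± 0.277, and the downstream segment 9.70 ± 0.68 and 7.23 ± 0.607.

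With 1 fragment fixed in the INTs, the other fragment still leaned toward the bait, though less than the ends as a whole. The partner lay in the upstream segment in 9.44%, 11.1% and 13.2% of such pairs with the Trav17 bait and in 3.22%, 4.37% and 2.90% with the Eα bait, out of 922, 1043 and 4596 against 4219, 1854 and 2140 pairs. It lay in the proximal V region in 37.4 ± 2.42% against 31.9 ± 2.1%, and in the distal Jα array in 12 ± 2.24% against 21.9 ± 3.0%, neither of which overlapped. Its share in proximal Jα was 2.49%, 5.47% and 11.2% against 7.61%, 11.8% and 6.73%. That overlapped, and the 3 Trav17 libraries spanned most of the range, the deepest being the highest. The Trav17 to Eα ratio of these partner shares was 3.22 upstream and 0.549 in the distal Jα array, against 7.71 and 0.288 over all ends. Relative to the segments' own frequencies, the INTs with the upstream segment had 0.337 ± 0.0625 from Trav17 and 0.780 ± 0.193 from Eα. With the distal Jα array the INTs had 0.859 ± 0.101 and 0.436 ± 0.0441. Neither ratio overlapped between the baits, but a ratio between segments is capped too, at 1 over the larger of their shares. From Trav17 and Eα the caps are 4.38 and 10.4 with the upstream segment. With the distal Jα array they are 10.5 and 3.04, so no order of the baits was read from these ratios either. With 1 fragment fixed in proximal Jα, the partner lay upstream of the Trav17 window in 19.5 ± 1.03% against 2.86 ± 0.837%, in the δ interval in 12.1 ± 1.28% against 15.4 ± 0.178% and in the distal Jα array in 23.8 ± 6.32% against 45.8 ± 1.24%. It lay in the proximal V region in 29.2%, 22.1% and 23.8% against 18.4%, 15.4% and 22.3%, which overlapped.

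At the level of pairs of 5 kb bins, edgeR's quasi-likelihood test called 102 of 2434 (4.19%), 59 higher with the Trav17 bait (2.42%) and 43 higher with the Eα bait (1.77%), and 100 of them did not overlap between the baits, beside 21.4% of all bin pairs tested. Almost all calls lay on the bait's own side. Of the 59, 56 had both bins upstream of the INTs, and of the 43, 38 had both downstream. Of the 2434 bin pairs tested, 918 had both bins upstream and 448 both downstream. Only 5 of the 818 tested bin pairs that cross the INTs were called. The distal Jα array with itself had 26 calls of 66 tested, the upstream segment with itself 24 of 58, the upstream segment with the proximal V region 22 of 278, the proximal V region with itself 10 of 582 and proximal with distal Jα 6 of 27. The called bins were a median of 30 kb apart, with 15 over 100 kb apart where 1306 such were tested. The count was sensitive to the libraries: 43, 52 and 67 were called without Eα library 1, 2 or 3, 41 with the replicate number as a block, 161 by DESeq2 (74 higher with the Trav17 bait and 87 with the Eα bait) and 217 of 585 with each distinct pair counted once. DESeq2 also moved the median log2 fold change of all bin pairs from 0.30 to 0.04.

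The bin pairs with the largest fitted change had 0 reads with the other bait. The bound on their fold was set by 3 distinct pairs over the group at 0, each distinct pair counted once because repeated reads are not independent, and it covers counting error only. With the Eα bait, the bin of Traj24 to Traj20 with that of Traj4 to Traj1 had 103, 58 and 38 reads in libraries 1, 2 and 3 and none with the Trav17 bait (edgeR adjusted p = 1.5e-08). These were 39 distinct pairs, at least 10.2-fold higher with the Eα bait, or 6.28 without Trav17 library 3. With all reads the bound was 81.2, and 24.6 without that library, which holds most of the Trav17 reads. With the Trav17 bait, chr14:53790001-53795000 joined to chr14:53820001-53825000, on the far side of the window, had 31, 15 and 62 reads (edgeR adjusted p = 0.00043), 16 distinct pairs and at least 6.82-fold more. The bins of Trav15-3 and Trav13-5 had 9, 17 and 92 reads (12 distinct pairs, at least 5.11-fold) and those of Trav16 and chr14:53790001-53795000 had 7, 21 and 90 (23, at least 9.80-fold). Those of Trav13-4-dv7 and of Trav3-4 with Trav12-4 had 28, 11 and 51 reads (21, at least 8.95-fold), and that of Trav13-5 with chr14:53770001-53775000 had 20, 18 and 32 (12, at least 5.11-fold). In all of these 6, every library of the bait had reads and no library of the other did. The bin pairs were picked as not overlapping and by the largest fitted change, which favours 0 reads with the other bait. This pattern is therefore no separate support. Of all 102 called bin pairs, 37 had 0 reads with the other bait. Without Eα library 1 the bounds of the 5 Trav17 bin pairs were 4.02, 3.01, 5.77, 5.27 and 3.01, in the order given. The other 4 Eα bin pairs were Traj47 to Traj43 with Traj19 to Traj15 (58 reads, 14 distinct pairs, at least 3.65-fold), Traj42 to Traj39 with Traj7 to Traj5 (70 and 23, at least 6.00-fold), chr14:54125001-54130000 with Traj4 to Traj1 (80 and 10, at least 2.61-fold) and Traj55 to Traj53 with Traj39 to Traj34 (73 and 9, at least 2.35-fold). Without Trav17 library 3 their bounds were 2.26, 3.71, 1.61 and 1.45. These 4 had edgeR adjusted p of 0.0060, 0.011, 0.011 and 0.019, and lost the call with the block (0.074, 0.097, 0.080 and 0.126). They also lost it without Eα library 2 (0.271 and 0.170 for the first 2, 0.051 for the last), without Eα library 1 (0.082, 0.177 and 0.219 for the last 3) or without Trav17 library 3 (0.057 for the last).

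The 2 baits look at the same contact when a pair from 1 of them holds a fragment in the window of the other. From the Trav17 bait 2.72%, 3.08% and 2.89% of the region's pairs had a fragment in the Eα window, and from the Eα bait 1.90%, 2.36% and 1.95% had a fragment in the Trav17 window. The groups did not overlap (exact two-sided permutation test, p = 0.1), nor with distinct pairs, without pairs in the own window (3.41 ± 0.122% against 2.24 ± 0.276%) or over all of chromosome 14 (1.93 ± 0.141% against 1.40 ± 0.173%). The own window, left out of the profiles, was in 20.9 ± 1.82% of the pairs with the Trav17 bait and 12.8 ± 0.854% with the Eα bait. Such shares need not be equal from both ends, since each is relative to what else its bait meets.

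The third site of these shared triplets was then compared, over 391, 407 and 1885 pairs with the Trav17 bait and 643, 305 and 323 with the Eα bait. Of the 7 segments, only the downstream one did not overlap, with 8.18%, 10.6% and 13.7% from Trav17 against 7.47%, 5.25% and 2.48% from Eα (exact two-sided permutation test, p = 0.1, adjusted p = 0.7), a difference of 5.77 percentage points that was 4.31 to 7.09 without each library in turn. The proximal V region took 31.2%, 31.4% and 25.7% against 45.4%, 27.9% and 24.5%, and its difference of -3.12 percentage points turned to 3.30 without Eα library 1. The INTs took 10.6 ± 2.4% and 8.49 ± 6.38%, a difference of 2.15 that turned to -0.12 without Eα library 2, proximal Jα took 3.04 ± 1.61% and 1.63 ± 0.283%, and the distal Jα array 23.5 ± 3.0% and 19.9 ± 5.37%. At the finest scale, reads that join the 2 bait fragments themselves numbered 9, 15 and 58 from Trav17 and 38, 45 and 26 from Eα, with 15 and 24 different fragments at the third site, of which 3 were shared (20% and 12.5% of each list).

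Pairs from the Trav17 bait reached somewhat farther. The 2 fragments lay over 100 kb apart in 34.6%, 31.9% and 34.9% of the pairs with the Trav17 bait and in 28.6%, 25.2% and 29.1% with the Eα bait, which did not overlap (exact two-sided permutation test, p = 0.1, adjusted p = 0.3). The median distance overlapped between the groups, at 36.8, 27 and 40.9 kb against 25.6, 18.8 and 28.1 kb. Between libraries of the same number it was longer with the Trav17 bait in 3 of 3, by 11.2, 8.14 and 12.8 kb (p = 0.25 in an exact sign-flip test, the smallest that 3 pairs allow). The share within 1 bin overlapped (25.5% and 26.7%). Both fragments lay in the mapped region for 53.1 ± 2.09% of the chromosome 14 reads with the Trav17 bait and 57.0 ± 2.1% with the Eα bait. Over the 106 bins outside the windows that held reads, Spearman's rho between profiles was 0.892 to 0.948 among Trav17 libraries, 0.957 to 0.967 among Eα libraries and 0.499 to 0.641 between baits. Within the 48 such bins of the proximal V region it was 0.638 to 0.754 between baits, and within the 32 from the INTs to the distal Jα array 0.708 to 0.796. Bins share their number of MboI fragments and how well these align in every library, so these values describe likeness across bins and not replicates.

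Liver cells, in which the locus is inactive, give the level of the same measures in another cell type of the same genotype, CBE+/+ Rag1-/-. Neither these nor the DP cells rearrange the locus. There were 2 liver libraries for each bait, with only 1044 and 590 kept pairs (Trav17) and 621 and 352 (Eα). In the INTs the share was 1.87% and 0.847% in liver against 5.94 ± 0.796% in DP cells with the Trav17 bait, and 2.09% and 2.56% against 9.65 ± 0.433% with the Eα bait. In proximal Jα it was 0.431% and 0.0847% against 2.20 ± 0.295%, and 0.805% and 0.142% against 5.69 ± 0.543%. From both ends all DP libraries were thus above all liver libraries in these elements (adjusted p = 0.117, and p = 0.1 by the exact two-sided permutation test, which cannot be smaller for 3 against 2). The proximal V region moved in opposite directions: from the Trav17 bait it held 68.7% and 58.1% in liver against 42.2 ± 1.84% in DP cells, and from the Eα bait 8.37% and 11.4% against 26.8 ± 1.84%. The distal Jα array held 4.55% and 8.98% in liver against 9.49 ± 0.659% from Trav17, which overlapped, and 43.5% and 38.9% against 32.9 ± 0.433% from Eα. The largest change was downstream of the Eα window, which from Eα held 33.5% and 33.4% in liver against 7.14 ± 0.278% in DP cells, without overlap. From Trav17 it held 2.01% and 4.92% against 4.79 ± 0.384%, which overlapped. Between the baits, liver cells had the same sign of difference as DP cells in 6 of the 7 segments, and proximal Jα overlapped in liver. In the proximal V region the baits were 53.5 percentage points apart in liver and 15.4 in DP cells. In the distal Jα array the values were -34.4 and -23.4, and downstream of the Eα window -30.0 and -2.35. The difference of these differences was not tested. The liver values of proximal Jα rest on 9 and 1 ends with the Trav17 bait and on 10 and 1 with the Eα bait. A count of 3 ends, the limit that a count of 0 allows, is 0.144% and 0.254% of the Trav17 liver libraries and 0.242% and 0.426% of the Eα ones, for counting error only, so library 1 of each bait lay above that limit and library 2 below it.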

How the data were processed

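3C-HTGTS reads from 6 DP thymocyte and 4 liver libraries were analysed. Per the study's methods and the submitters' processing notes, the authors trimmed reads (fastp 0.20.0, cutadapt 1.18), aligned MboI fragments to mm10 (Bowtie2 2.4.5), removed self-ligated and contiguous fragments and kept the first 2 fragments after the bait; SAMtools 1.9, bedtools 2.29.2 and DESeq2 1.34.0 are also listed. The deposited counts give, unnormalized, how many reads fell on each pair of 5 kb bins. The deposited read lists name the fragments of every read. Binned by fragment end, the reads of the mapped region gave the deposited counts exactly in all 6 libraries. Over chromosome 14 the read lists held more reads than the deposited counts in every library, as with 30643 against 23662 in Trav17 library 1. Shares over chromosome 14 rest on the read lists. All 6582 fragment starts in the region, distinct within each library, lay at an MboI site of GRCm38.p6. The authors' scaled matrices and the reads regrouped for display were not used.

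Counts were compared with edgeR 4.0.16 in R 4.3.3 (library size equal to the kept total, at least 10 counts over the 6 libraries), shares with exact two-sided permutation tests, and p-values were adjusted by Benjamini-Hochberg over all bins, bin pairs or items of a measure. DESeq2 1.42.0 with its own size factors was an alternative. Scripts were tested on simulated data. Python 3.11.15, numpy 2.4.6, pandas 2.3.3 and matplotlib 3.10.9 were used. A fragment was counted in the bin of its end. Genes and sequences are from RefSeq (GRCm38.p6), with bait fragments found from the biotinylated primers.

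Sites named were the study's elements, the V genes between the windows, and up to 5 bins and bin pairs in each direction that changed most on the log2 scale among those called and not overlapping. Members, lists and tests were chosen with earlier results of these data known. The ratio of pair classes to their segments, the inner and outer 60 kb, the median inward distance, the own window, the shares of sites, partners and Jα ends, the prominence of every bin and the bounds from distinct pairs were added after seeing the data. Libraries of the same number deviated together (Pearson's r of the deviations of log2 bin shares from the bait means 0.237, 0.211 and 0.144; -0.232 to 0.0156 for other numbers), so the replicate number from the labels was used as a block in an alternative; for a share, an exact sign-flip test over the 3 differences by number, which cannot give a p under 0.25, replaced the model and leaves the difference itself as it is.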

Additional observations from a re-analysis of the deposited data

How the results depend on the processing

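Of 1585 values recomputed under alternatives for 164 results, 1513 kept their direction and side of the threshold (or moved by less than the spread), 21 reversed, 27 lost and 1 gained significance, and 23 counts moved by more than 1.5 times. The reversed values belong to 13 of 126 measures of shares and distances; all 7 segments and all 8 inward steps kept their direction. The bin calls, 54, were 29 with 10 kb bins, of which 54 were tested, and 59 with the replicate block. The bin pair calls, 102, were 161 by DESeq2 (adjusted p NA for 1276), 217 with distinct pairs (585 tested), 186 with the bait windows kept, 41 with the replicate block and 43 to 92 without each library in turn. Apart from bin pairs the block ended no call named here; for shares it cannot move the difference and was not counted. With distinct pairs, differences (Trav17 minus Eα, percentage points) reversed for the proximal V region with the δ interval (-0.24 to 0.044) and with the downstream segment (0.072 to -0.18), for pairs across the INTs (0.69 to -0.37) and for pairs within 1 bin (-1.23 to 0.33). With the windows widened, pairs across the INTs went to -0.85, and the prominence of Trav18 from -1.69 to 2.32 and of Trav19 from -0.024 to 0.028. With control bins 10 to 25 kb away that of Trdd2 went from 0.37 to -0.45. In DP against liver cells, the upstream segment of the Trav17 bait went from 4.31 to -0.44 without pairs within 1 bin. Without each library in turn the following crossed 0: pairs across the INTs (-0.37 to 1.33), the proximal V region with the downstream segment (-0.17 to 0.30), pairs within 1 bin (-2.71 to 0.45), the third site in the INTs (-0.12 to 5.80) and in the proximal V region (-7.18 to 3.30), the prominence of Trav19 (-0.11 to 0.080), Trdv2-2 (-0.12 to 0.32) and Trdv4 (-0.039 to 0.052), and the downstream segment of the Trav17 bait in DP against liver cells (-0.12 to 2.78). The causes were not tested.

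Depth limits the liver values, with at most 1044 kept pairs in a library. Repeated reads of a pair are not independent, and whatever the form of the read names stands for cannot be told apart from the bait.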
